A study of Rattus norvegicus with 6 samples.

Results

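Endoplasmic reticulum chaperones and disulfide isomerases were followed in the aorta of spontaneously hypertensive rats (SHR), an inbred strain with high blood pressure. The genes were Canx, Calr, Hspa5, Hsp90b1, P4hb, Pdia3, Pdia4 and Pdia6, 8 in all. Every probe set whose only gene symbol in the platform annotation was one of these was taken, and each probe set was kept apart. This gave 8 of the 4736 genes and 21 of the 8799 probe sets of an Affymetrix rat chip, 5 for Canx, 3 each for Calr, Hspa5, Hsp90b1 and P4hb, 2 for Pdia3 and 1 each for Pdia4 and Pdia6. Runners were SHR that ran voluntarily in wheel cages for 5 weeks, and non-runners were SHR that did not run. Both groups were thus hypertensive. There were 3 arrays a group, lettered A to C, and every array carried RNA pooled from 3 aortae. The labels give neither age nor sex, nor how rats were divided among pools, so p-values reflect the variation among these pools and may include technical variation. In whole aorta, fewer cells of a type and less RNA per cell cannot be told apart.

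The endoplasmic reticulum (ER) is where secreted and membrane proteins fold, which in the aortic wall include the collagens and elastin made by smooth muscle cells and fibroblasts. Hspa5 (BiP) and Hsp90b1 (GRP94) are the ER members of the Hsp70 and Hsp90 families. Canx (calnexin, in the membrane) and Calr (calreticulin, in the lumen) hold glycoproteins by their sugars until these are folded, and Calr also binds calcium. P4hb, Pdia3, Pdia4 and Pdia6 are protein disulfide isomerases, which form and rearrange disulfide bonds. Pdia3 works with calnexin and calreticulin, and P4hb is also a subunit of the collagen prolyl hydroxylase. When unfolded proteins gather, the unfolded protein response raises many of these genes through a promoter motif named the ER stress response element (ERSE).

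The promoters of these genes are shown first because the ERSE is the feature that many of them are known to share. Promoters from RefSeq, on the rat assembly GRCr8, reach from 250 bases before to 50 bases after each gene's start, and the table held 6 of the 8 genes. The ERSE was searched on both strands as CCAAT, any 9 bases, then CCACG. It was present in 4 of the 6 promoters, those of Canx, Calr, Hspa5 and Hsp90b1, and in 22 of all 33469 promoters (0.0657%). Because the motif was picked as one that many of these genes are known to share, this contrast is not a test. The exact motif was also in 3 of 24 promoters of other ER chaperones and thiol enzymes (Creld2, Dnajc3 and Ero1b). It was in 1 of 15 of the stress response list (Xbp1) and 1 of 12 of the ER associated degradation list (Derl3). The collagen, translocation, calcium store and cytosolic chaperone lists held 0. Pdia4 had 0 exact matches and 1 match with 1 mismatch, and P4hb had 0 of either. With up to 1 mismatch allowed, 1.41% of all promoters held the motif. A shorter relative of the motif (ERSE-II, ATTGG, any base, CCACG, present in 0.0508% of all promoters), the unfolded protein response element (TGACG followed by TGG, 0.595%) and a heat shock element (GAA, TTC and GAA, each pair separated by 2 bases, 0.798%) were each found in 0 of the 6. ERSE-II shares its last 5 bases with the ERSE. A match is a stretch of letters and says nothing of use in these aortae.

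The 5 exact matches of the ERSE are printed with up to 20 bases on either side, 5′ to 3′ on the strand of the gene, with the fixed letters of the motif in capitals. A match that runs opposite to the gene appears as its reverse complement. The Canx match lies 230 to 212 bases before the start (chr10:35158049-35158107, minus strand), that of Calr 232 to 214 bases (chr19:40213117-40213173, plus strand) and that of Hspa5 43 to 25 bases (chr3:38452953-38453011, plus strand). Hsp90b1 has matches at 176 to 158 bases (chr7:23012431-23012489, minus strand) and at 72 to 54 bases (chr7:23012327-23012385, minus strand).
Canx: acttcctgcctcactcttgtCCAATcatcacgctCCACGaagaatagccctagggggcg
Calr, opposite: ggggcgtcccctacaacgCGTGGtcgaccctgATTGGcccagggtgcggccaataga
Hspa5: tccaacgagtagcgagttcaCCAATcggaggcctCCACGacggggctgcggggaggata
Hsp90b1, far: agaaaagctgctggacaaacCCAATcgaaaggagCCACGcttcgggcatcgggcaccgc
Hsp90b1, near, opposite: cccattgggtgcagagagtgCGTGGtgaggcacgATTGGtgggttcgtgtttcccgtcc

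In the aortae of runners, probe sets of Canx, Calr, Hspa5 and Pdia6 lay below all non-runner arrays, while other probe sets of Canx, Calr and Hspa5 did not. Hsp90b1 did not separate the groups in any probe set, and the P4hb probe sets were mixed. Values of single arrays are the authors' intensities (linear scale), and differences are runner minus non-runner on the scale of log2(intensity + 2.4), after quantile normalization and without the dimmest 40% of probe sets. Of 20 member probe sets tested, 11 had a log2 difference below 0 and 9 above it (55.0% below 0, against 50.5% of the 5244 probe sets tested). Their median difference was -0.08, beside a median of -0.0041 over all probe sets tested. The brightest probe set of each gene gave another picture, with 6 of 8 below 0 and a median of -0.35 (-0.29 without non-runner B). Of these 6, P4hb was at only -0.02. The share of 50.5% is over all probe sets tested, not over the brightest of each gene. By limma, 0 of the 20 passed an adjusted p under 0.05 (0.0% of all 5244 in either direction), with adjusted p between 0.373 and 0.998. At an unadjusted p under 0.05, 5 were lower in runners (background 4.21%) and 1 was higher (background 3.87%). Deposited intensities separated the groups fully in 6 probe sets with runners below (background 7.49%) and in 2 with runners above (background 7.38%). These 6 came from 4 genes, and the pairs that Canx and Calr gave each share a target sequence name, so they are not 6 separate measurements.

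The aortic label was checked against smooth muscle markers. Intensities of Acta2, Myh11 and the other smooth muscle markers on the chip (5 of 6 listed) summed to 11450 to 12450 in runners and 11670 to 13670 in non-runners. Of 6 nerve and Schwann cell markers, 5 were tested and all 5 differed below 0, with sums of 1029 to 1149 in runners and 1324 to 1574 in non-runners (Dbh was on every array below the control level of 40.8, the 95th percentile of the 19 chip controls made against yeast or sense strands). Blood markers, 3 of 4 on the chip, summed to 1762 to 3305 in runners and 1152 to 1580 in non-runners. Sums of endothelial markers were 296 to 346 in runners and 338 to 427 in non-runners, with Vwf, Kdr and Icam2 below the control level on every array. Fibroblast and matrix markers summed to 12640 to 13390 in runners and 12560 to 14210 in non-runners. The part of these other cell types in the chaperone values was not tested. Non-runner B stood apart, with a beta-actin 3′/5′ signal ratio of 2.14, against 1.22 to 1.43 in runners and 1.28 and 1.67 on non-runners A and C. The ratio was 1.31 ± 0.11 over runner arrays and 1.70 ± 0.43 over non-runner arrays (SD, n = 3), with p = 0.3 by a two-sided exact permutation test whose smallest possible p is 0.1. The same ratio for GAPDH was 1.18, 1.22 and 1.11 on runners A, B and C, against 1.22, 1.95 and 1.39 on non-runners A, B and C. Non-runner B was again the highest, and the exact permutation p was 0.1. Both ratios thus averaged lower in runners, with ranges that overlap or touch, and their part in the chaperone values was not tested beyond the beta-actin covariate given below. For genes named below, differences that leaving out non-runner B moved by over 1.5 times are given with and without it.

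**Figure D1:**
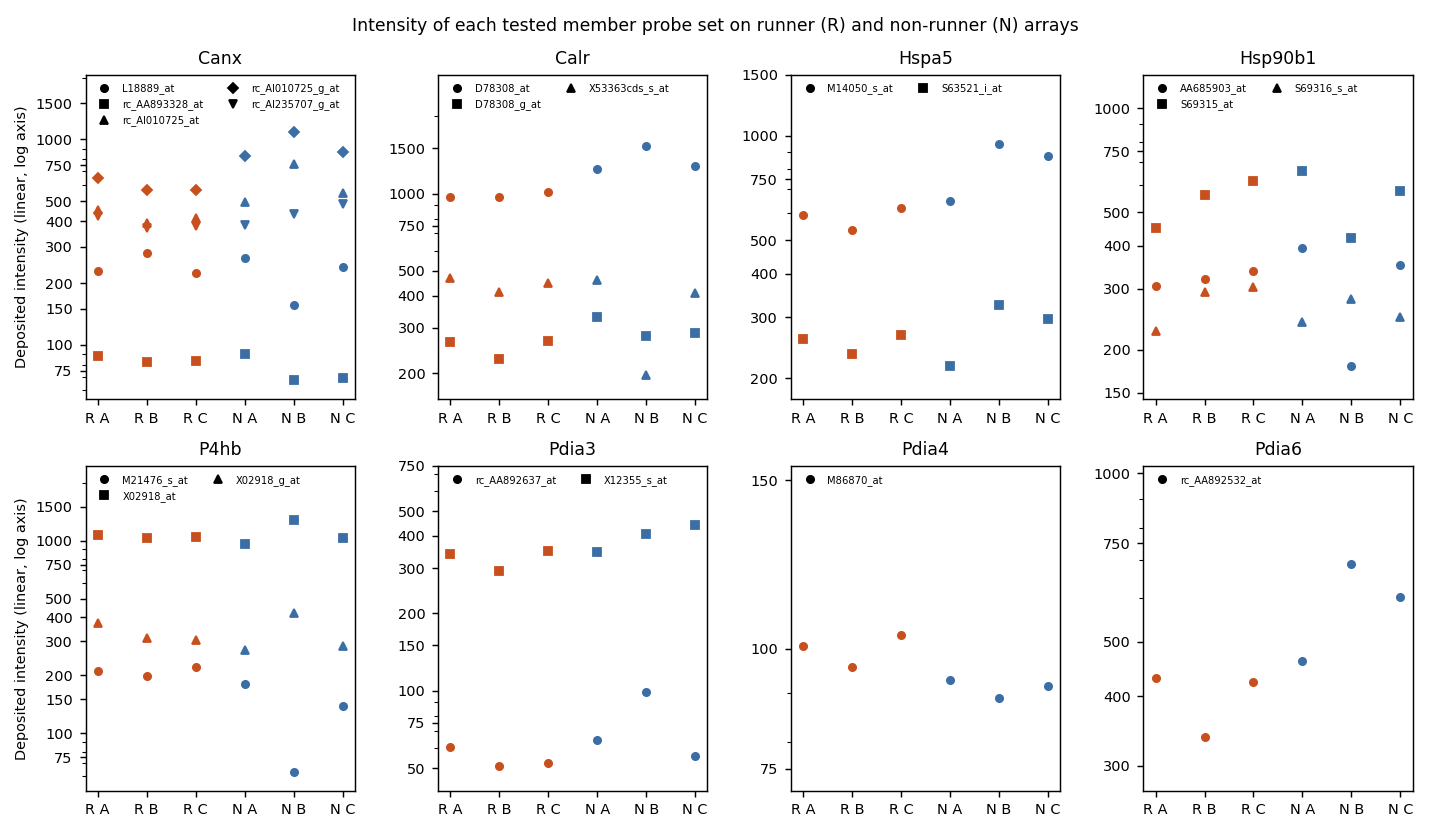
Deposited intensity (linear values on a log axis) of the 20 tested probe sets, 1 panel per gene, on runner arrays A to C (R, orange) and non-runner arrays A to C (N, blue). Marker shapes stand for probe sets; within Canx, Calr and P4hb, non-runner B (N B) is the highest array for some probe sets and the lowest for others.

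Canx, calnexin, gave the member probe set with the smallest p. Its brightest probe set, rc_AI010725_g_at, read 646.7, 567.5 and 566.2 on runners A, B and C, against 832.9, 1089.4 and 871.3 on non-runners A, B and C. All runner arrays were below all non-runner arrays. The mean was 593.5 ± 46.1 for runners against 931.2 ± 138 for non-runners (SD, n = 3), a log2 difference of -0.61 ± 0.15 (SE; 95% interval -0.96 to -0.26, limma adjusted p = 0.373). Without non-runner B the log2 difference was -0.52 ± 0.13 (SE, unadjusted p = 0.0058 by limma, adjusted p = 0.402). The companion probe set rc_AI010725_at read 454.5, 393.7 and 415.4 in runners, against 498.6, 762.5 and 548.3 in non-runners, again without overlap (log2 difference -0.49 ± 0.19 SE, limma adjusted p = 0.582). It was at -0.30 without non-runner B, whose 762.5 is the highest value by far.

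The other 3 Canx probe sets did not separate the groups. rc_AI235707_g_at read 423.8, 368.9 and 379.0 in runners and 385.1, 434.0 and 484.8 in non-runners (-0.15 ± 0.15). L18889_at read 229.9, 280.3 and 223.8 in runners and 263.6, 157.1 and 239.5 in non-runners, with non-runner B lowest of all arrays. Its difference was 0.17 with all arrays and -0.06 without non-runner B. rc_AA893328_at, the dimmest of the 5, read 88.5, 82.7 and 83.1 in runners and 90.1, 67.8 and 69.3 in non-runners (0.15 ± 0.16 SE, 0.09 without non-runner B). The position of each probe set along the Canx transcript was not analysed here.

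Calr, calreticulin, showed the same division. D78308_at, its brightest probe set, read 972.9, 972.7 and 1011.1 in runners, against 1248.2, 1533.1 and 1276.8 in non-runners. The runner values lay close together and all below the lowest non-runner value. Runners averaged 985.6 ± 22.1, against 1353 ± 157 for non-runners (SD, n = 3), with a log2 difference of -0.42 ± 0.15 (SE, 95% interval -0.75 to -0.08, limma adjusted p = 0.572). D78308_g_at also separated the groups, at 264.7, 226.4 and 266.3 in runners and 332.1, 279.7 and 287.6 in non-runners (-0.25 ± 0.15 SE, limma adjusted p = 0.714). Of the 6 probe sets with runners wholly below, it alone read lower on non-runner B than on the mean of non-runners A and C, and its difference was -0.30 without that array. X53363cds_s_at pointed the other way, with 468.3, 413.5 and 447.5 in runners and 460.9, 197.2 and 409.6 in non-runners. Its log2 difference was 0.41 ± 0.30 with all arrays and 0.03 without non-runner B, where the reading was less than on any other array.

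Hspa5, the ER Hsp70 that also holds the stress sensors of the unfolded protein response inactive, was represented by 3 probe sets. M14050_s_at read 592.0, 535.7 and 619.1 in runners, against 647.6, 944.3 and 871.6 in non-runners. The groups did not overlap, though runner C and non-runner A lay close. Runners averaged 582.3 ± 42.5, against 821.2 ± 155 for non-runners (SD, n = 3), a log2 difference of -0.44 ± 0.18 (SE, 95% interval -0.85 to -0.03, limma adjusted p = 0.585). It was -0.35 without non-runner B (unadjusted p = 0.0849 by limma). S63521_i_at read 260.6, 235.9 and 267.0 in runners and 217.5, 325.0 and 296.5 in non-runners. There the groups overlapped, and the difference of -0.13 ± 0.19 (SE) moved to -0.02 without non-runner B. S63521_r_at, the 1 member probe set that did not pass the filter on low values, read 5.3 to 5.7 in runners and 5.3 to 7.6 in non-runners, below the control level on all 6 arrays.

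Hsp90b1, the ER Hsp90, did not separate the groups in any of its 3 probe sets. S69315_at, the brightest, read 449.2, 559.3 and 616.6 in runners and 658.5, 420.0 and 575.4 in non-runners. Its log2 difference was 0.00 ± 0.22 (SE, 95% interval -0.50 to 0.50, limma adjusted p = 0.998), an interval wide enough to hold the differences seen for Calr and Hspa5, and it was -0.17 without non-runner B. AA685903_at read 306.1, 320.5 and 338.7 in runners and 393.0, 179.6 and 352.5 in non-runners, with non-runner B again lowest. It differed by 0.14 ± 0.28 (SE) with all arrays and by -0.21 without non-runner B. S69316_s_at read 227.0, 293.7 and 303.0 in runners and 241.0, 280.3 and 248.3 in non-runners (0.10 ± 0.17 SE, 0.15 without non-runner B), and was higher, not lower, on non-runner B than on the mean of the other non-runner arrays.

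**Figure D2:**
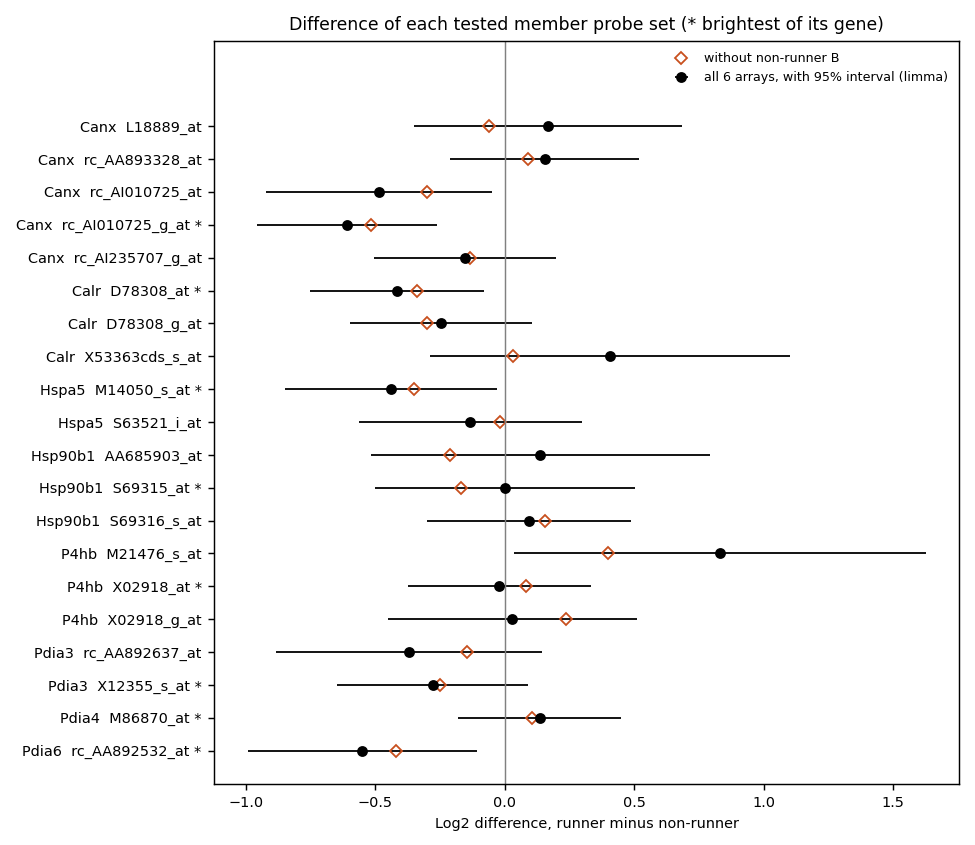
Log2 difference, runner minus non-runner, of each tested member probe set, with all 6 arrays and its 95% interval from limma (black points and bars) and without non-runner B (open diamonds); an asterisk marks the brightest probe set of each gene. Intervals lie wholly below 0 for 5 probe sets of Canx, Calr, Hspa5 and Pdia6 and wholly above 0 for 1 of P4hb, before adjustment for the number of probe sets.

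Among the disulfide isomerases, Pdia6 was the gene whose runner arrays lay wholly below the non-runner arrays. Its only probe set, rc_AA892532_at, read 431.0, 338.6 and 424.4 in runners, against 462.8, 687.7 and 602.2 in non-runners. The groups did not overlap. Runners averaged 398 ± 51.6, against 584.2 ± 114 for non-runners (SD, n = 3), a log2 difference of -0.55 ± 0.19 (SE, 95% interval -0.99 to -0.11, limma adjusted p = 0.572), and -0.42 without non-runner B.

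Pdia3, the partner of calnexin and calreticulin, had differences below 0 in both of its probe sets with groups that overlapped. X12355_s_at read 341.6, 293.0 and 348.6 in runners and 346.9, 408.7 and 442.3 in non-runners (-0.28 ± 0.16 SE, limma adjusted p = 0.692). Only runner C, and by a small margin, exceeded the lowest non-runner value. rc_AA892637_at read 60.6, 51.0 and 52.4 in runners and 64.1, 98.6 and 55.6 in non-runners (-0.37 ± 0.22 SE). That difference was -0.14 without non-runner B.

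Pdia4 read 100.7, 95.7 and 103.5 in runners, against 92.8, 88.9 and 91.4 in non-runners, in its only probe set, M86870_at. All runner values were above all non-runner values, but by little (log2 difference 0.13 ± 0.14 SE, 95% interval -0.18 to 0.45, limma adjusted p = 0.802). The interval includes 0 although the groups do not overlap; limma draws the small variance of such a probe set toward that of the others.

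The probe sets of P4hb disagreed, with log2 differences from -0.02 to 0.83. M21476_s_at read 210.2, 197.8 and 220.3 in runners and 179.7, 63.0 and 138.6 in non-runners, with all runners above all non-runners. Its log2 difference was 0.83 ± 0.34 (SE, 95% interval 0.04 to 1.63, limma adjusted p = 0.597), the largest above 0 among the members, and 0.40 without non-runner B (unadjusted p = 0.0419 by limma). X02918_at, the brightest, read 1066.8, 1028.8 and 1044.6 in runners and 959.0, 1286.1 and 1028.4 in non-runners. There the runner values lay inside the non-runner range, with a difference of -0.02 ± 0.15 (SE, 95% interval -0.37 to 0.33) that turned to 0.08 without non-runner B. X02918_g_at read 374.2, 312.2 and 306.9 in runners and 271.2, 421.7 and 283.1 in non-runners, a difference of 0.03 ± 0.21 (SE) that was 0.24 without non-runner B.

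The reading on non-runner B divided the members. Relative to the mean of non-runners A and C, 12 of the 20 tested probe sets read higher on non-runner B and 8 read lower, against 53.0% higher over all probe sets tested. Of the 12, 10 had a runner minus non-runner difference below 0, and of the 8, 1 did. Since non-runner B enters both quantities, this division is partly built in. Without non-runner B, 9 of the 12 and 4 of the 8 were below 0, that is 13 of 20 (background 49.9%), with a median of -0.14 beside a median of 0.00073 over all probe sets tested. At an unadjusted p under 0.05 by limma, 2 members were then lower (background 4.08%) and 1 was higher (background 4.12%). The lower ones were the brightest probe sets of Canx and Calr, and the higher one was that of P4hb at M21476_s_at. Leaving out non-runner A or runner C also moved the median of the 20, to -0.13 each.

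**Figure D3:**
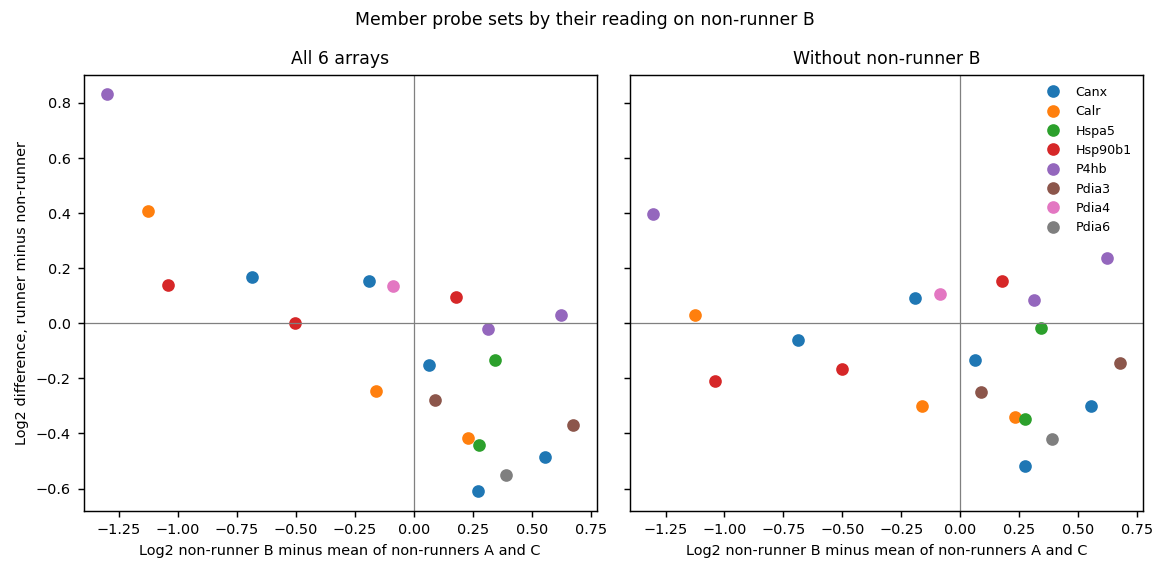
Each point is a tested member probe set, coloured by gene. The horizontal axis is the log2 value on non-runner B minus the mean of non-runners A and C, and the vertical axis the log2 difference, runner minus non-runner, with all 6 arrays (left) and without non-runner B (right). On the left, 10 of the 12 points right of 0 and 1 of the 8 points left of 0 lie below the horizontal line, and on the right 9 and 4 do.

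The SD of the deposited intensities (linear scale) was smaller among runner arrays than among non-runner arrays for 18 of the 20 member probe sets (90.0%). Over all probe sets tested the share was 65.8%. The 20 probe sets come from 8 genes, so they are not 20 separate measurements. Non-runner B held the highest intensity for 9 of the 20 and the lowest for 7. Runner B held the lowest for 8. With the beta-actin 3′/5′ ratio of each array as a covariate, 13 of 20 differences were below 0 and the brightest Canx probe set remained at -0.50 (unadjusted p = 0.0228 by limma), alone among the members under 0.05. The P4hb probe set M21476_s_at was then at 0.20 and Calr X53363cds_s_at at -0.11.

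Other genes of ER folding and stress were measured with the brightest probe set of each gene, and 0 passed an adjusted p under 0.05 by limma in any list. These lists are given by counts and medians, with no test of a list. Of 25 other ER chaperones and thiol enzymes, 8 were tested, 6 of them with differences below 0 (background 50.5%, median -0.08). By limma, 0 had an unadjusted p under 0.05. Without non-runner B, 5 of the 8 were below 0, with a median of -0.01. Without runner C, 4 were, with a median of -0.03. Hyou1, an ER chaperone of the Hsp110 family, averaged 119 ± 7.1 on runner arrays, against 127.9 ± 7.0 on non-runner arrays (SD over 3 arrays, as for the means that follow). Its log2 difference of -0.09 was -0.05 without non-runner B. Erp29 averaged 186.6 ± 17.4 in runners and 223.9 ± 43.2 in non-runners, with 273.7 on non-runner B. Its difference of -0.24 was -0.10 without that array. Ppib, the ER cyclophilin, averaged 731.4 ± 44.2 in runners and 562.5 ± 308 in non-runners, with 208.4 on non-runner B, and its difference of 0.59 was -0.01 without that array. Ero1b, an oxidase that recharges disulfide isomerases, lay below the control level on 5 of 6 arrays. Its difference of -0.19 was 0.07 without non-runner B.

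Enzymes and chaperones of collagen folding were below 0 in 5 of 5 tested genes (background 50.5%), though not by equal amounts. Their median was -0.28, and -0.18 without non-runner B. In fits without non-runner A or without runner A, 4 of 5 were below 0. P4ha1, the catalytic partner of P4hb in collagen prolyl hydroxylase, read 317.8, 342.4 and 291.3 in runners, against 431.7, 418.2 and 481.2 in non-runners. The groups did not overlap and non-runner B was not extreme (log2 difference -0.48 ± 0.14 SE, -0.51 without non-runner B, limma unadjusted p = 0.0097, adjusted p = 0.499). Plod3 and Plod2, lysyl hydroxylases of collagen, differed by -0.35 ± 0.20 and -0.28 ± 0.19 (SE). Without non-runner B these were -0.20 for Plod3 and -0.09 for Plod2, and with the beta-actin covariate Plod2 was at -0.015. Serpinh1, the collagen chaperone Hsp47, averaged 950.8 ± 61.8 in runners and 1028 ± 129 in non-runners. Its difference was -0.06 ± 0.16 (SE), and -0.18 without non-runner B.

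Of 9 stress sensors and targets of the unfolded protein response tested, 7 were below 0 (background 50.5%). Their median was -0.09 (-0.05 without non-runner B). The count below 0 was 6 without non-runner B, 5 with the beta-actin covariate and 9 without runner C. Trib3, a pseudokinase induced by ER stress, read 15.8, 19.4 and 12.9 in runners, against 20.9, 42.5 and 49.7 in non-runners. It was below the control level on 4 of 6 arrays, the runners among them, so its size depends on the settings: the log2 difference was -1.09 ± 0.33 (SE, limma unadjusted p = 0.0107, adjusted p = 0.508), -0.67 with a pseudocount of 20 and -0.58 with the beta-actin covariate. Ddit3 (CHOP), a transcription factor of prolonged ER stress, averaged 82.6 ± 3.3 in runners and 100.9 ± 22.6 in non-runners (-0.25 ± 0.19 SE). Atf3, a stress-induced transcription factor, averaged 237.8 ± 69.2 in runners and 344.4 ± 125 in non-runners, with 481.6 on non-runner B. Its difference of -0.52 was -0.24 without that array. Eif2ak3 (PERK), a sensor that slows translation, averaged 53.8 ± 6.3 in runners and 63.3 ± 15.3 in non-runners, with 80.5 on non-runner B. Its difference of -0.22 was -0.04 without that array. For Ddit3, Atf3 and Eif2ak3 the groups overlapped.

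Of 10 genes of translocation into the ER and of N-glycosylation tested, 4 were below 0 (background 50.5%), with a median of 0.09. The count below 0 was 5 with median centring, 2 without non-runner B and 1 with the beta-actin covariate. That median came to 0.12 with non-runner B left out and to -0.03 with non-runner A left out. Sec61b, a subunit of the translocation channel, read 343.3, 344.8 and 305.1 in runners, against 288.0, 284.4 and 251.5 in non-runners (0.26 ± 0.14 SE, 0.28 without non-runner B, limma adjusted p = 0.678). Sec61a1, the pore subunit, averaged 125 ± 4.4 in runners and 96.3 ± 31.4 in non-runners, with 60.3 on non-runner B. Its difference of 0.43 was 0.13 without that array. Sec11a, of the signal peptidase, and Dad1, of the oligosaccharyl transferase, differed by 0.23 ± 0.16 and 0.22 ± 0.18 (SE), and without non-runner B by 0.13 for Sec11a and 0.04 for Dad1. Of the 3 genes of ER associated degradation tested, 2 were below 0 (background 50.5%), Ube2g2 at -0.16 and Ube2g1 at -0.06. Vcp, the segregase that extracts proteins from the ER, was at 0.16. Without non-runner B the values were 0.05 for Ube2g2, -0.29 for Ube2g1 and 0.24 for Vcp.

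Of 7 genes of the ER calcium store, 4 were below 0 (background 50.5%, median -0.09), and 3 without non-runner B (background 49.9%, median 0.03). Itpr3, an inositol trisphosphate receptor that releases calcium, read 130.4, 135.4 and 146.9 in runners, against 184.1, 212.5 and 188.4 in non-runners, without overlap (log2 difference -0.49 ± 0.14 SE, limma unadjusted p = 0.00865, adjusted p = 0.48). Atp2a3, a calcium pump that fills the store, averaged 140.7 ± 13.8 in runners and 173.7 ± 15.9 in non-runners (-0.30 ± 0.16 SE), also without overlap. Casq2, calsequestrin, and Rcn2, a reticulocalbin, differed by 0.20 ± 0.22 and -0.09 ± 0.19 (SE), and by -0.02 and 0.08 without non-runner B.

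The cytosolic chaperones include members of the Hsp70 and Hsp90 families, to which Hspa5 and Hsp90b1 belong. Of 14 listed genes of the cytosolic Hsp70, Hsp110, Hsp40 and Hsp90 families, 9 were on the chip and 7 were tested. In their brightest probe set, 7 of 7 lay below 0, against 50.5% of all probe sets tested. The median was -0.60. Without non-runner B, 6 of 7 lay below 0 (background 49.9%), with a median of -0.65. With the beta-actin covariate 6 of 7 did, with a median of -0.60. Over all probe sets of the cytosolic genes, 15 of 16 tested were below 0 with a median of -0.56, beside 11 of 20 and -0.08 for the ER genes. Dnaja1, an Hsp40, read 932.5, 1097.9 and 893.1 in runners, against 1519.7, 1684.3 and 1633.6 in non-runners. Hspa1a, the stress-inducible Hsp70, read 1825.7, 1697.2 and 1221.4 in runners, against 2663.5, 2369.5 and 2406.6 in non-runners, with non-runner B lowest of its group. The groups overlapped for neither gene, nor for Hsph1 and Dnajb1, which differed by -0.84 and -0.99. The limma adjusted p of these genes ran from 0.296 to 0.52. In 5 of the 7 brightest probe sets runners lay wholly below non-runners, against 7.49% of all probe sets tested. Whether the ER and cytosolic genes differ from each other was not tested.

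**Figure D4:**
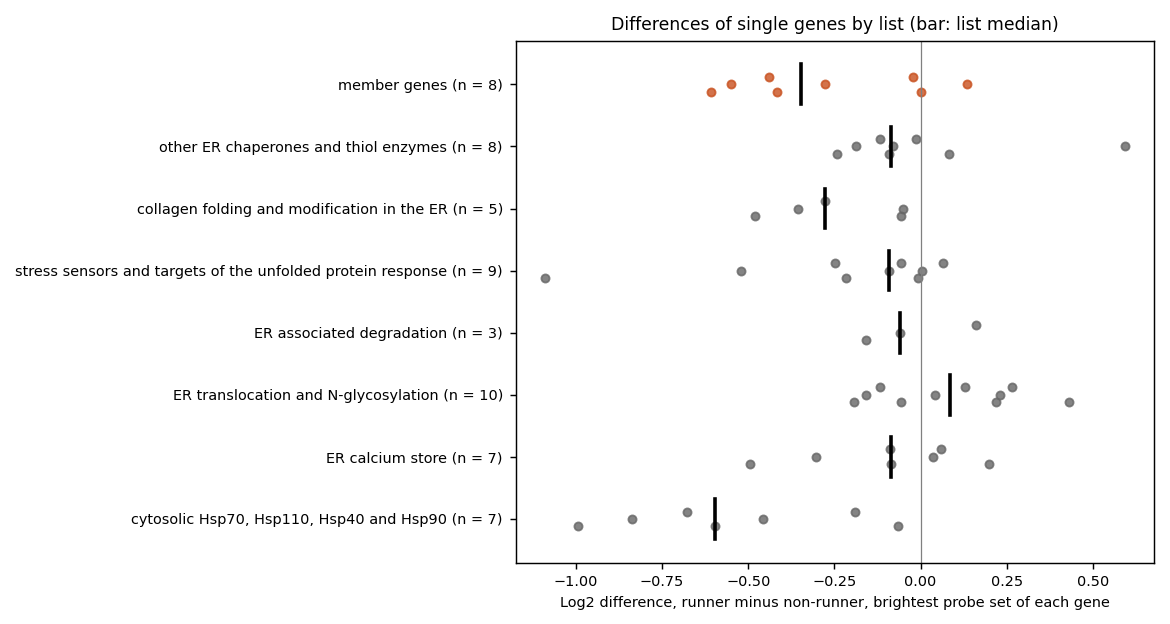
Log2 difference, runner minus non-runner, of the brightest probe set of each tested gene, by list, with the ER chaperones and disulfide isomerases (member genes) in orange and black bars at each list's median. With all 6 arrays the medians are -0.35 for the member genes, -0.60 for cytosolic chaperones, -0.28 for collagen folding and 0.09 for translocation and glycosylation. Without non-runner B they are -0.29, -0.65, -0.18 and 0.12.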

How the data were processed

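The deposited table holds the authors' intensities on a linear scale, 1 per probe set and array, without detection calls; the software and genome build behind them are not given in the sources used here. Array medians ran from 28.5 to 32.2. Intensities were analysed as log2(intensity + 2.4), the 10th percentile of the positive values, so fold changes of dim probe sets are understated. After 59 control probe sets were left out, log2 values were quantile normalized, and the dimmest 40% by mean were dropped. The 5244 probe sets left (3173 genes) were compared with limma 3.58.1 in R 4.3.3 (lmFit, eBayes, two-sided, Benjamini-Hochberg over all of them, threshold 0.05). The procedure was tested on simulated data in which all arrays had equal spread. That test does not cover an outlying array such as non-runner B. Fits used all 6 arrays and, where said, 5. Group overlap was judged on deposited intensities. The control level, 40.8, is the 95th percentile of the 19 chip controls made against yeast or sense strands.

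Single symbols came from the platform annotation (7006 probe sets), and gene identifiers of all 8 genes matched the RefSeq table of GRCr8. Members and gene lists were chosen with earlier results of these data known. Every member is named, and of each other list the 4 tested genes with the smallest p; Hspa1a, Hsph1, Dnajb1 and Dnaja1 are those of the cytosolic list. Lists are described by counts and medians only. Background shares are over all probe sets tested, also where they stand beside counts of brightest probe sets. Promoter motifs were searched with Python 3.11.15. The number of arrays limits precision. Alternatives changed the pseudocount, normalization, filter or variance model, or added a chip letter block or the beta-actin ratio as a covariate, or left out each array. Figures were drawn with matplotlib 3.10.9.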

Additional observations from a re-analysis of the deposited data

How the results depend on the processing

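The count of 0 member probe sets passing limma's test held in all 16 alternatives. Over all probe sets, 0 higher and 0 lower passed in the 10 alternatives with 6 arrays (298 to 617 at an unadjusted p under 0.05), and leaving out each array gave 0 to 4 higher and 0 to 1 lower. With the chip letter as a replicate block, 0 members passed and 3 had an unadjusted p under 0.05, against 6 without the block. The labels do not say that the letters pair the samples, and they also give the runner chips the letters D to F. Deviations from the group means correlated at -0.09 to -0.04 between arrays of 1 letter. With 3 arrays a group this cannot settle whether the samples were paired. Leaving out single arrays put the member median of -0.08 between -0.14 and -0.05. Of 320 member values, 303 kept their direction and 17, of 7 probe sets, did not. Hsp90b1 S69315_at (0.00) was at -0.013 without normalization between arrays and -0.061 with median centring. With the beta-actin covariate, values with the opposite sign were -0.10 (Canx L18889_at), -0.11 (Calr X53363cds_s_at), 0.081 (Hspa5 S63521_i_at), -0.34 and -0.27 (Hsp90b1 AA685903_at and S69315_at), 0.11 (P4hb X02918_at), 0.26 (Ero1b), -0.13 (Ppib), 0.071 (Eif2ak3), 0.24 (Ube2g2), -0.11 (Casq2) and 0.087 (Rcn2). As arrays were left out, values that changed sign ranged from -0.062 to 0.32 (Canx L18889_at), -0.21 to 0.35 (Hsp90b1 AA685903_at), -0.17 to 0.16 (Hsp90b1 S69315_at), -0.084 to 0.083 (P4hb X02918_at), -0.088 to 0.24 (P4hb X02918_g_at), -0.18 to 0.030 (Serpinh1), -0.41 to 0.069 (Ero1b), -0.0071 to 0.91 (Ppib), -0.39 to 0.048 (Ube2g2), -0.29 to 0.13 (Ube2g1), -0.019 to 0.31 (Casq2) and -0.24 to 0.080 (Rcn2). The cause was not tested. The median of all probe sets was -0.04 with median centring and 0.0064 without normalization between arrays.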
